A study of Mus musculus with 15 samples.

Results

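The collapsin response mediator family holds 5 mouse genes, Dpysl2, Dpysl3, Dpysl4, Dpysl5 and Crmp1. They were read out of a table of 53801 genes by family membership alone, with no limit on their level or change. The family itself was selected on these data, because it was chosen by an earlier look at the differences between the 3 groups. The values and calls of its members are therefore a description and not an independent test of the family. Gene expression had been measured by RNA-seq in 15 cultures of primary adult neural stem cells (aNSCs) from mice of the mixed strain C57BL6/J-129sv, aged 2 months. All mice carried the transgene Rosa26-CreERT2, which makes a Cre recombinase from the ubiquitously active Rosa26 locus that works once 4-hydroxytamoxifen (4-OHT) is present. The gene it cuts is Trrap, a scaffold subunit of histone acetyltransferase complexes, and the series was made to learn which transcripts change when it is lost. 1 group was Trrap Fl/+, with 1 floxed allele, left untreated. The next was Trrap Fl/+ with 4-OHT, in which Cre can remove the single floxed allele. The last was Trrap Fl/Fl with 4-OHT, in which both alleles are floxed. The labels give 5 days of treatment, whereas the study's methods split this time into exposure to 4-OHT and a later stay in fresh medium. Each group held 5 cultures, and the same 5 mice gave both Fl/+ groups, numbered 19, 24, 26, 35 and 36. The Fl/Fl cultures came from 5 other mice.

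The proteins of this family are cytosolic phosphoproteins that resemble dihydropyrimidinase, an enzyme of pyrimidine breakdown, but have no known hydrolase activity of that kind. They form tetramers, bind tubulin dimers and microtubules in growth cones, and pass on the signal of semaphorin 3A from the neuropilin and plexin receptors. Cdk5 and Gsk3 phosphorylate them in turn, which lowers their hold on tubulin. In the brain they are best known from newborn and growing neurons, where they steer axon and dendrite growth, and several are also made by progenitor cells.

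Every member is protein coding. In the genome build GRCm38, Dpysl2 lies at chr14:66802864-66868688 on the minus strand, and Dpysl3 lies on the minus strand too. Dpysl4 lies at chr7:139086001-139102704, Dpysl5 at chr5:30711564-30799375 and Crmp1 at chr5:37241940-37292133, each on the plus strand. Over the longest coding sequences, Dpysl2, Dpysl3, Dpysl4 and Crmp1 shared 70.3% to 74.6% of aligned bases in pairs. Dpysl5 was the most distant member, with 61.6% to 63.4% identity to the other 4. No stretch of 51 bases, the length of 1 read, in a transcript of a member occurred in a transcript of any other gene, so reads of the members could be told apart. Crmp1 overlaps Evc on the opposite strand, which held 1600 to 2703 counts per library, and the counting kept the strands apart.

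The study asked about Sp1, a transcription factor that binds GC boxes, so the bases before the starts of the members are shown with the GC box letters GGGCGG, or CCGCCC on the other strand, in capitals. RefSeq windows of 250 bases before a start were at hand for Dpysl5 and for 2 starts of Crmp1. Dpysl2, Dpysl3 and Dpysl4 had no window in this table. In the first Crmp1 window the bases that GENCODE places in an exon are left out, which leaves 132 bases.
Dpysl5, chr5:30711314-30711563, plus strand, GRCm38.p6: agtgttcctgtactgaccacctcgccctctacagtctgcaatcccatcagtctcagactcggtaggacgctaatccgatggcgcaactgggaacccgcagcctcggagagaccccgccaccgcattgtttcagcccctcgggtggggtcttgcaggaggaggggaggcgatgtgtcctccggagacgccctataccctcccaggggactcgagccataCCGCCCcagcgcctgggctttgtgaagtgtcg
Crmp1, first start, chr5:37241808-37241939, plus strand, GRCm38.p6: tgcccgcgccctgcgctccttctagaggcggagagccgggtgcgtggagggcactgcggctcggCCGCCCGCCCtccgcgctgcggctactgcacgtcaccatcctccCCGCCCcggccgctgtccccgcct
Crmp1, second start, chr5:37245514-37245763, plus strand, GRCm38.p6: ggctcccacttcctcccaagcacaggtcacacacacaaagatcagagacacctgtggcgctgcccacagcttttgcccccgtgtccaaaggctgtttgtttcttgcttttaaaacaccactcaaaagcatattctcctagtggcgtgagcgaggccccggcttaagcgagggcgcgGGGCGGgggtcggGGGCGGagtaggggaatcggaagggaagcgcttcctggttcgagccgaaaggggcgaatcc
The Dpysl5 window held 1 GC box, the whole first Crmp1 window 5, of which 3 are in the printed bases, and the second Crmp1 window 2. Neighbouring boxes can share letters, as in the first run of capitals before Crmp1. At least 1 such box stood in 32.7% of the 32851 promoters of the table, at least 2 in 16.7% and at least 5 in 1.93%. With the longer letters GGGGCGG, held by 21.0% of promoters, the counts were 1, 3 and 2. None of the 3 windows held TATAAA or CCAAT in either strand. Their GC content was 62.8%, 75.6% and 59.6%, against a median of 52.4% over all promoters. These matches describe the letters only, since binding was not measured here.

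Depth lay between 25.7 M and 32.2 M counts a library, so that 3 counts, the floor used here for a gene that is not detected, were worth about 0.105 CPM (counts per 1 M, after scaling). Trrap itself, the targeted gene, stood at 190 ± 14.3 CPM in Fl/+ untreated, 164 ± 26.4 CPM in Fl/+ 4-OHT and 104 ± 24.2 CPM in Fl/Fl 4-OHT cultures (SD, n = 5), and 1 Fl/Fl library, from mouse 29, held 142 CPM, inside the range of the Fl/+ 4-OHT libraries, which began at 138 CPM. The groups thus overlapped for Trrap. These counts cover the whole gene and not the floxed part alone. 1 library went against its labelled sex. The Fl/Fl library of mouse 39, labelled female, held the Y-linked Ddx3y at 54.0 CPM and Xist, which marks the inactive X, at 0.313 CPM. The libraries of mouse 36, labelled male, held Ddx3y at 47.7 CPM untreated and 52.9 CPM with 4-OHT, like other males, but also Xist at 5.89 and 74.7 CPM, where the libraries of the other female mice held 335 to 692 CPM. Whether samples were swapped or mixed was not tested. The members' log2 fold changes and the number of genes called were therefore also computed without the cultures of mice 36 and 39, while the gene lists, marker sums, shares and RPKM levels were not. The cultures held the neural stem cell genes Nes at 849 to 1071 CPM and Sox2 at 234 to 399.7 CPM as group means.

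Per kilobase of exon (RPKM), the only scale on which the members are set beside each other, Dpysl3 led the family in every group. Its level was 59.3 ± 7.57 RPKM in Fl/+ untreated, 73.3 ± 4.11 RPKM in Fl/+ 4-OHT and 25.6 ± 3.02 RPKM in Fl/Fl 4-OHT cultures (SD, n = 5). It was above every other member in all 5 libraries of each group. Dpysl5 had the lowest mean level in each group, at 3.20 ± 1.36, 1.66 ± 0.309 and 1.17 ± 0.348 RPKM in the same order. In untreated cultures Dpysl2, at 29.5 RPKM, stood second, followed by Crmp1 at 17.4 RPKM and Dpysl4 at 8.94 RPKM. There, only Dpysl4 and Dpysl5 overlapped in range. In Fl/+ 4-OHT cultures Crmp1 at 20.5 RPKM and Dpysl2 at 20.1 RPKM did not differ beyond their spread, and 3 of 5 libraries had Crmp1 above Dpysl2. In Fl/Fl 4-OHT cultures the ranges of Dpysl2 at 10.1, Crmp1 at 8.52 and Dpysl4 at 7.21 RPKM overlapped between neighbours. The order was the same in TPM, which divides by the same exon lengths, so within a library it could not differ. Other exon lengths were not tried.

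Summed over its 5 genes, the family stood at 118 ± 17.3 RPKM in Fl/+ untreated, 126 ± 9.76 RPKM in Fl/+ 4-OHT and 52.6 ± 6.47 RPKM in Fl/Fl 4-OHT cultures (SD, n = 5). The Fl/Fl libraries, from 46.9 to 63.2 RPKM, lay below all 10 Fl/+ libraries, of which the lowest was at 97.4 RPKM. The makeup of this sum differed too. Dpysl3 held 50.2% ± 1.74 of it in untreated cultures, 58.3% ± 3.43 in Fl/+ 4-OHT and 48.7% ± 2.18 in Fl/Fl 4-OHT cultures. Dpysl2 held 24.7% ± 3.25, 15.98% ± 1.23 and 19.3% ± 2.20 in the same order. The share of Dpysl4 was 7.42% ± 2.14 and 8.28% ± 1.39 in both Fl/+ groups and 13.6% ± 1.74 in Fl/Fl cultures, where every library, from 11.6% upwards, was above the highest Fl/+ library at 10.1%. Crmp1 kept a like share as a mean, with 14.9% ± 2.11, 16.1% ± 3.25 and 16.1% ± 1.04 in the same order. Single Fl/+ 4-OHT libraries ranged from 12.0% to 20.9%. The ratio of Dpysl3 to Dpysl2 was 2.06 ± 0.326, 3.66 ± 0.202 and 2.55 ± 0.302.

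**Figure D1:**
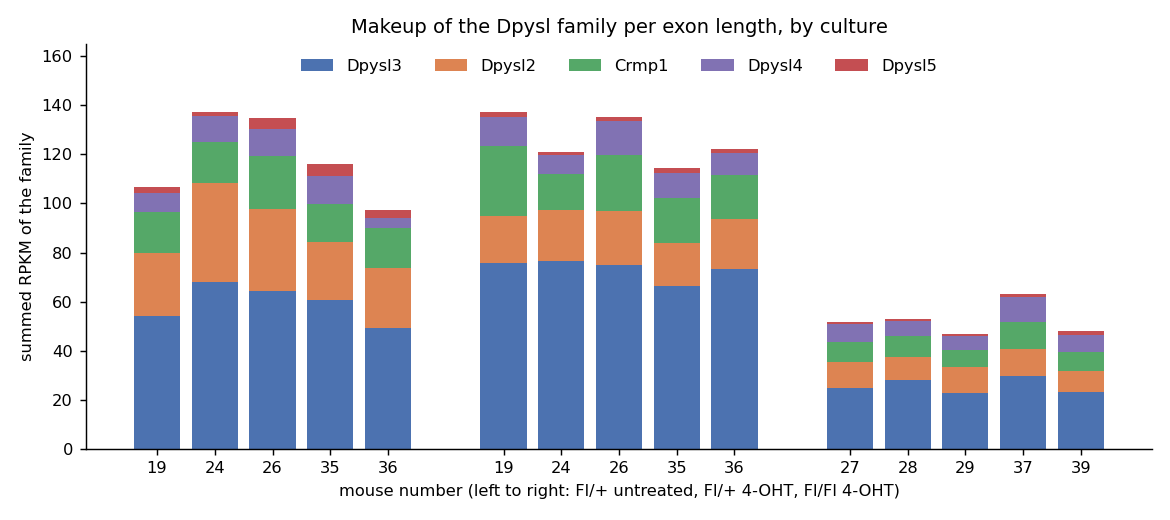
Stacked bars give the summed level of the family (RPKM, linear axis from 0) in each of the 15 cultures, divided by gene, with the mouse number under each bar and the 3 groups from left to right. The Fl/Fl 4-OHT bars reach 46.9 to 63.2 RPKM and every Fl/+ bar at least 97.4 RPKM, and Dpysl3 is the largest block in each bar.

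The main comparison, Fl/Fl 4-OHT against Fl/+ 4-OHT, shows what differs when the remaining Trrap allele can be removed as well. Dpysl3, Crmp1 and Dpysl2 fell clearly and Dpysl4 fell by less, while Dpysl5 did not pass the test. 4 of the 5 members were called lower and none higher by edgeR's quasi-likelihood test at an adjusted p under 0.05. Of all 15036 genes tested, 15.0% were called lower and 16.8% higher. Scaling by library size alone gave 1951 genes lower and 2848 higher in place of 2253 and 2520. The median log2 fold change was -0.98 over the members and 0.02 over all genes tested. As the family was chosen with this contrast in view, the members' count is not read against these shares.

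Dpysl3 (chr18:43320984-43438286), which besides tubulin binds and bundles actin filaments in growth cones, changed most. It stood at 499.6, 506, 494, 438 and 484 CPM in the Fl/+ 4-OHT cultures of mice 19, 24, 26, 35 and 36. In the Fl/Fl 4-OHT cultures of mice 27, 28, 29, 37 and 39 it stood at 164, 184, 149, 195 and 153 CPM. Every Fl/Fl culture was thus far below every control. The mean went from 484 ± 27.1 to 169 ± 19.9 CPM (SD, n = 5), which is 64.7% lower. The log2 fold change was -1.50 (SE 0.0881, edgeR adjusted p = 1.43e-05). Ordered by size, it had rank 87 among the falls of all tested genes.

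Crmp1, a mediator of semaphorin 3A signals in which the kinase Fyn takes part, was the next. Its levels were 202, 102, 161, 129 and 127 CPM in the Fl/+ 4-OHT cultures and 58.5, 59.2, 49.8, 79.5 and 53.2 CPM in the Fl/Fl 4-OHT cultures, in the same order of mice. The controls were widely spread, with mouse 19 highest and mouse 24 lowest, but the groups did not overlap. Crmp1 fell by 1.25 on the log2 scale (SE 0.181, edgeR adjusted p = 0.000654), from 144 ± 38.4 to 60.0 ± 11.6 CPM.

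Dpysl2, the member studied most for carrying tubulin dimers to growing microtubule ends in axons, stood at 87.4, 93.7, 100.3, 80.1 and 92.8 CPM in the controls. The Fl/Fl cultures held 46.8, 43.5, 48.4, 49.4 and 39.6 CPM. Both groups were tight and well apart, and the log2 fold change was -0.98 (SE 0.0839, edgeR adjusted p = 5.23e-05), from 90.9 ± 7.55 to 45.5 ± 4.02 CPM. For Dpysl2, Dpysl3 and Crmp1 the groups did not overlap and the Fl/Fl cultures were lower, a pattern that 11.4% of all tested genes showed.

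Dpysl4, best known for shaping dendrites of hippocampal neurons, stood at 70.9, 47.7, 81.5, 60.8 and 52.6 CPM in the controls and at 43.7, 36.8, 34.2, 60.4 and 40.5 CPM in the Fl/Fl cultures. The groups overlapped, because the Fl/Fl culture of mouse 37 was above the controls of mice 24 and 36. The log2 fold change was -0.53 (SE 0.177, edgeR adjusted p = 0.0410). This call is a narrow one. It was lost without any 1 of the control libraries of mice 19, 26 and 35 and of the Fl/Fl libraries of mice 27, 28, 29 and 39, with log2 fold changes of -0.55 to -0.42 and adjusted p between 0.0614 and 0.0900. It was also lost without the cultures of both mice 36 and 39 (-0.57, adjusted p = 0.0757) and with the dispersion of all 15 libraries (-0.54, adjusted p = 0.113).

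Dpysl5, which restrains the outgrowth that Dpysl2 promotes, had the lowest values, at 13.4, 8.77, 12.3, 14.9 and 11.9 CPM in the controls and 7.36, 7.44, 6.10, 9.71 and 12.6 CPM in the Fl/Fl cultures. Its groups overlapped and the log2 fold change of -0.49 (SE 0.204) did not pass the test (edgeR adjusted p = 0.0862). Mouse 39, whose library goes against its labelled sex, gave the highest value of the Fl/Fl group. Without that library the log2 fold change was -0.68 (adjusted p = 0.0209), without control mouse 24 it was -0.60 (adjusted p = 0.0440), and without the cultures of mice 36 and 39 it was -0.69 (adjusted p = 0.0367). The calls of Dpysl2, Dpysl3 and Crmp1 held in each of 19 other fits, in which their log2 fold changes ranged from -1.04 to -0.94, from -1.57 to -1.47 and from -1.38 to -1.11.

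**Figure D2:**
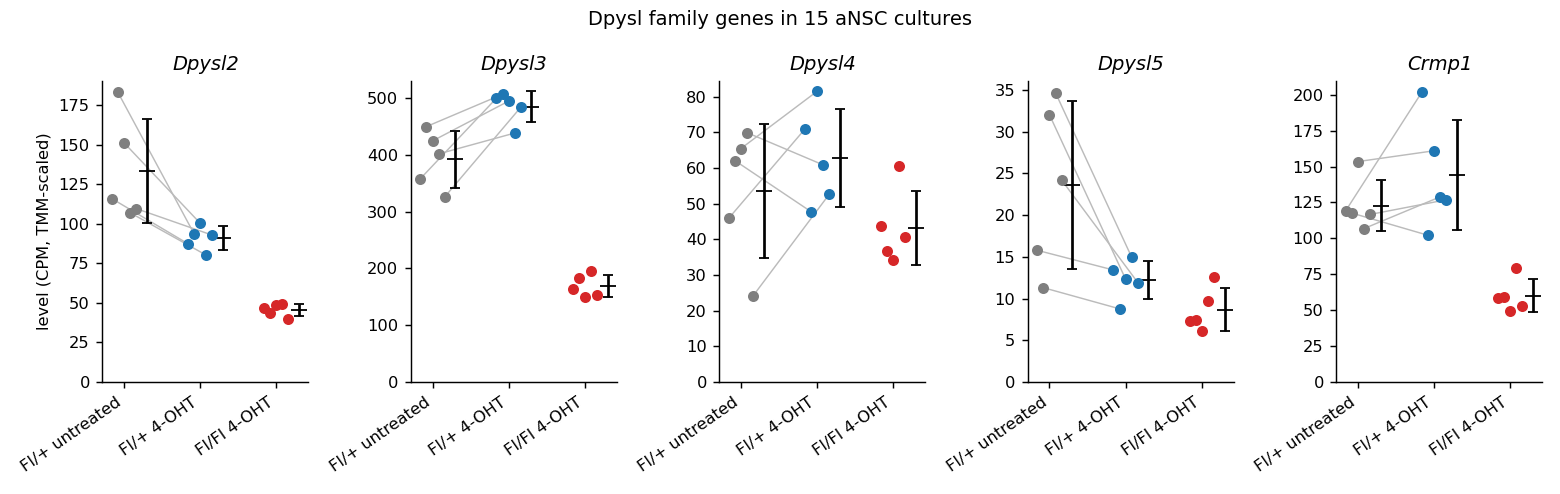
Points give the CPM of each member in each culture (linear axes from 0, 1 panel per gene), in grey for Fl/+ untreated, blue for Fl/+ 4-OHT and red for Fl/Fl 4-OHT, with the mean and SD of 5 cultures in black and grey lines joining the cultures of 1 mouse. Dpysl2, Dpysl3 and Crmp1 show every red point below every blue and grey point, while the points of Dpysl4 and Dpysl5 overlap.

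Fl/+ 4-OHT against Fl/+ untreated compares cultures of the same 5 mice and shows the effect of 4-OHT together with that of Cre acting on 1 Trrap allele, which cannot be told apart here. The members did not move together. Dpysl2 fell, and 1 of 5 members was called by edgeR, where 6.45% of the 14821 genes tested were called lower and 7.34% higher. Scaling by library size alone gave 712 genes lower and 1396 higher in place of 956 and 1088. With the mouse as replicate block Dpysl5 was called lower and Dpysl3 higher as well, where 11.9% of all genes were called lower and 13.8% higher.

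Dpysl2 stood at 116, 183, 151, 107 and 109.6 CPM in the untreated cultures of mice 19, 24, 26, 35 and 36 and, as given above, at 80.1 to 100.3 CPM with 4-OHT. It was lower in 5 of 5 mice, by most in mouse 24, and the groups did not overlap, as for 5.47% of tested genes in the downward direction. The log2 fold change was -0.55 (SE 0.148, edgeR adjusted p = 0.0310), and -0.52 in the paired fit (adjusted p = 0.00903). Without both cultures of mouse 36 it was -0.62 (adjusted p = 0.0412, unpaired). In the unpaired fit the call was lost without the untreated library of mouse 26 (-0.50, adjusted p = 0.0702) and without any 1 of the 4-OHT libraries of mice 19, 24, 35 and 36 (log2 fold changes of -0.53, -0.55, -0.50 and -0.55, adjusted p between 0.0617 and 0.0824).

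Dpysl5 stood at 15.8, 11.3, 32.003, 34.6 and 24.2 CPM untreated, with a spread that was wide among the mice. It was lower with 4-OHT in 5 of 5 mice, to 0.385 times the untreated level in mouse 26 and 0.850 times in mouse 19. The log2 fold change of -0.94 (SE 0.286) just missed the threshold without the block (edgeR adjusted p = 0.0502) and passed it with the block, at -0.85 (SE 0.182, adjusted p = 0.0120). Without the cultures of mouse 36 it was -0.93 (adjusted p = 0.113, unpaired). Leaving out the untreated library of mouse 19 or 24 brought the unpaired value to -1.06 (adjusted p = 0.0458) or -1.12 (adjusted p = 0.0127).

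Dpysl3 went the other way, from 358, 449.6, 424, 401 and 326 CPM untreated to the 438 to 506 CPM given above. It was higher with 4-OHT in 5 of 5 mice, and the groups overlapped. The log2 fold change was 0.31 (SE 0.0992, edgeR adjusted p = 0.0617), and 0.32 in the paired fit (SE 0.0917, adjusted p = 0.0362). In the unpaired fit 1 of 10 fits that each left out a library called it, the one without the untreated library of mouse 24 (0.36, adjusted p = 0.0397). In the other 9 the values were 0.25 to 0.35 and none was called. Without both cultures of mouse 36 the value was 0.24 (adjusted p = 0.147).

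Dpysl4 stood at 45.9, 62.0, 65.4, 69.9 and 24.2 CPM untreated, and was higher with 4-OHT in 3 mice and lower in mice 24 and 35. The untreated library of mouse 36 was the lowest of all 15 libraries for this gene. Crmp1 stood at 119, 118, 153, 107 and 117 CPM untreated, and was higher with 4-OHT in 4 mice and lower in mouse 24. The log2 fold changes, 0.23 for each (SE 0.255 and 0.170), did not pass the test (edgeR adjusted p = 0.587 and 0.392), nor did they in the paired fit (adjusted p = 0.304 and 0.256). Both sizes rest much on single libraries. For Dpysl4 the value was 0.04 without the untreated library of mouse 36, and 0.14 without the 4-OHT library of mouse 26. For Crmp1 it was 0.09 without the 4-OHT library of mouse 19. Without both cultures of mouse 36 the values were 0.10 for Dpysl4 (adjusted p = 0.757) and 0.25 for Crmp1 (adjusted p = 0.433).

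Fl/Fl 4-OHT against Fl/+ untreated shares its groups with the comparisons above and joins both steps. 4 of 5 members were called lower by edgeR, where 15.1% of 15032 tested genes were called lower and 15.7% higher, 30.7% in all. Scaling by library size alone gave 1603 genes lower and 3150 higher in place of 2263 and 2357, and left the outcome for each member as it was. Dpysl2, which was lower at both steps, had the largest change, with a log2 fold change of -1.54 (SE 0.153, adjusted p = 0.000101). Dpysl5 was at -1.44 (SE 0.312, adjusted p = 0.00563), although its groups overlapped, since the untreated culture of mouse 24 was below the Fl/Fl culture of mouse 39. Dpysl3 was at -1.20 (SE 0.112, adjusted p = 6.79e-05) and Crmp1 at -1.02 (SE 0.138, adjusted p = 0.000468). Dpysl4, at -0.30 (SE 0.257, adjusted p = 0.413), did not pass. Its value was -0.48 (adjusted p = 0.0569) without the untreated library of mouse 36, -0.19 without that of mouse 35 and -0.45 without the Fl/Fl library of mouse 37. Dpysl2, Dpysl3 and Crmp1 did not overlap between the groups, as for 11.6% of tested genes in the downward direction. The 4 calls held, and Dpysl4 was not called, in each of 19 other fits.

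**Figure D3:**
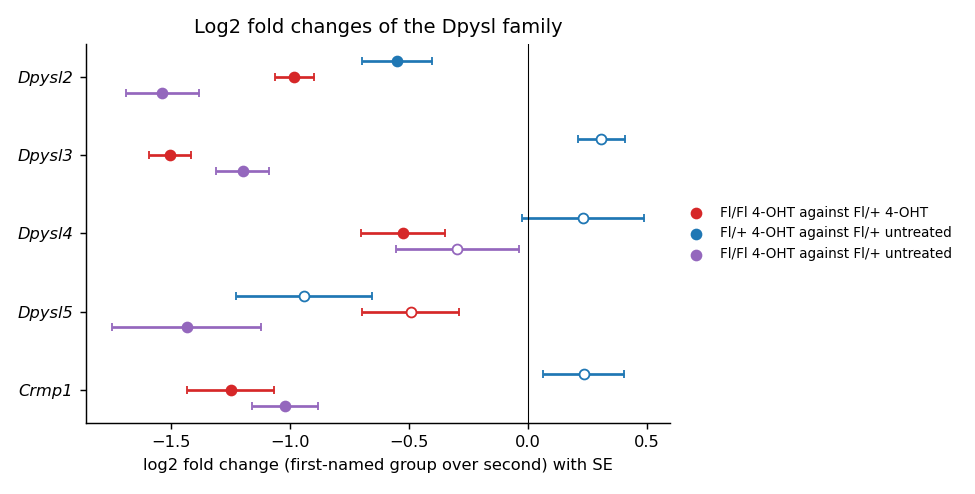
Log2 fold changes with their SE are given for each member in the 3 comparisons, with filled points for an adjusted p under 0.05 and open points otherwise. In the deletion comparison (red) every member lies below 0, and in the 4-OHT comparison (blue) Dpysl2 and Dpysl5 lie below 0 and the other 3 above it.

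The genes that work with the family were read from lists, which were also drawn up with earlier results known. They are described by counts. Of all tested genes 31.7% were called in either direction after deletion and 13.8% with 4-OHT, with the median over all tested genes being 0.02 in the deletion comparison and -0.01 in the 4-OHT comparison. Of the semaphorin ligands and receptors, 14 of 15 were tested after deletion, 3 fell and 1 rose, a count no higher than the share over all genes gives, with a median log2 fold change of -0.17. Nrp2, a neuropilin co-receptor, fell from 9.69 ± 1.77 to 3.41 ± 0.888 CPM (-1.49, edgeR adjusted p = 0.000506). Sema3a, the ligand itself, fell by 0.70 on the log2 scale (adjusted p = 0.0184), and Plxna3, a plexin that passes on its signal, fell by 0.47 (adjusted p = 0.000970). Sema3b rose by 1.10 (adjusted p = 0.0125) but stood at only 1.64 to 3.47 CPM as group means.

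Among 14 kinases and phosphatases that act on the family, 5 fell and 1 rose, with a median of -0.17. Cdk5r1, which makes the activator of Cdk5, fell by 0.87 (edgeR adjusted p = 0.000654), and Gsk3b fell from 212 ± 7.05 to 144 ± 3.84 CPM (-0.54, adjusted p = 0.000108). Dyrk2, a priming kinase, fell by 0.48 (adjusted p = 0.00199). Cdk5 rose from 79.5 ± 7.38 to 113 ± 14.9 CPM (0.53, adjusted p = 0.00339), so the kinase and its activator subunit went in opposite directions.

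Of 19 partners and semaphorin effectors 4 fell and 2 rose, a count near the share over all genes, with a median of -0.08. Without the filter on low counts 3 of them were called. The actin bundler Fscn1 fell by 0.91 (edgeR adjusted p = 0.000408), Farp1, an exchange factor of plexin signalling, by 0.51 (adjusted p = 0.00129) and the kinesin light chain Klc1 by 0.41 (adjusted p = 0.00434). Jakmip1 rose by 0.97 (adjusted p = 0.0326), from 0.981 to 1.91 CPM. The enzymes of pyrimidine breakdown, from which the family takes its name, showed no call among 4 tested of 6 after deletion by edgeR, with 0 at an unadjusted p under 0.05 and 0 called by DESeq2. With the mouse number range as covariate edgeR called 1 of them. Dpys, the dihydropyrimidinase itself, was too low to be tested in any comparison.

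The tubulins, which the family binds, gave 6 falls and 2 rises among 13, with a median of -0.32. With the dispersion of all 15 libraries 5 of them were called. Tubb5 fell from 1460 ± 66.8 to 751 ± 119 CPM (-0.94, edgeR adjusted p = 0.000184) and the neuronal Tubb3 fell by 1.04 (adjusted p = 0.0334). Tuba8 rose by 1.62 (adjusted p = 0.000537) and Tuba4a by 0.87 (adjusted p = 0.0395), both from under 7 CPM. Other microtubule regulators of growth cones gave 8 falls and 1 rise among 15 tested of 16, with a median of -0.52. The largest falls there were those of Dcx, a microtubule binder of migrating neuroblasts (-2.51, adjusted p = 0.00123), and of the tubulin-sequestering Stmn4 (-2.35, adjusted p = 0.00182), Stmn3 (-2.09, adjusted p = 0.000117) and Stmn1 (-1.22, adjusted p = 0.00155). For size, the fall of Dpysl3 lay between those of Stmn3 and Stmn1.

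**Figure D4:**
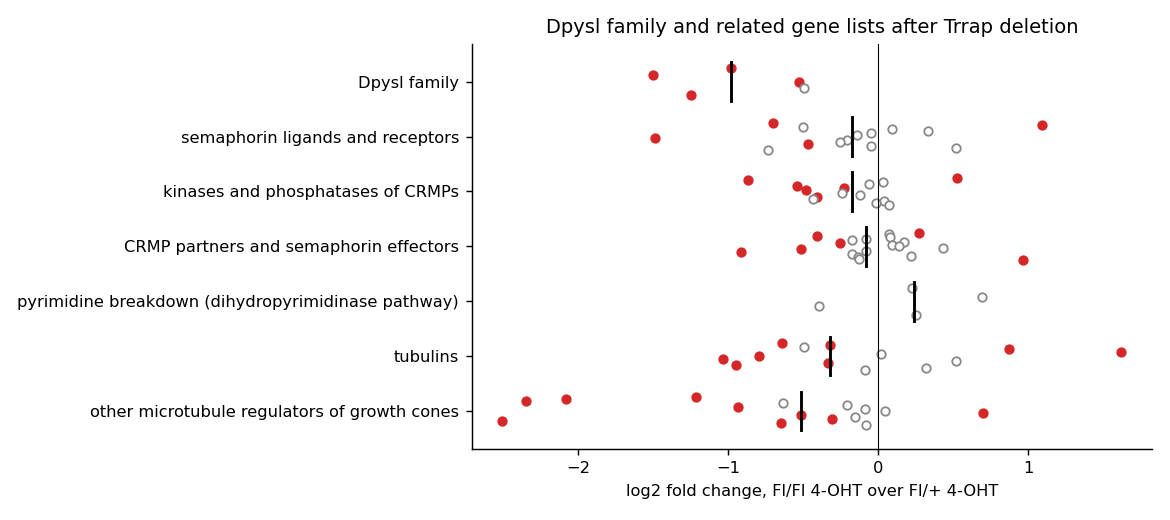
Each point is the log2 fold change of 1 gene between Fl/Fl 4-OHT and Fl/+ 4-OHT cultures, in red for an adjusted p under 0.05 and open otherwise, with a black bar at the median of each list. The family median is at -0.98, the medians of tubulins and of other microtubule regulators are at -0.32 and -0.52, and that of semaphorin ligands and receptors is at -0.17.

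With 4-OHT in Fl/+ cultures the lists gave few calls. Semaphorin ligands and receptors gave 3 rises and no fall, among them Sema3e (1.87, edgeR adjusted p = 0.00587) and the plexin Plxnd1 (0.81, adjusted p = 0.0154). The kinases gave 3 falls, Cdk5r1 (-0.68, adjusted p = 0.0448), Cdk5r2 (-0.63, adjusted p = 0.0457) and Cdk5 (-0.40, adjusted p = 0.0121). The partners gave 1 fall, of Mical1, which oxidises actin (-0.95, adjusted p = 0.00501), and the tubulins 1 fall, of Tuba4a (-1.41, adjusted p = 0.0328). Microtubule regulators gave 3 rises, Map1b (1.42, adjusted p = 0.00127), Dclk1 (0.68, adjusted p = 0.0106) and Clasp1 (0.30, adjusted p = 0.0139), and pyrimidine breakdown none among 4 by edgeR, where 2 had an unadjusted p under 0.05 and DESeq2 called Upb1. With the mouse as replicate block, the genes called in these lists numbered 6 of semaphorins and receptors, 5 of kinases, 6 of partners, 5 of tubulins, 5 of microtubule regulators and 1 of pyrimidine breakdown. Of all genes 25.7% were called with the block.

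Since several members are abundant in young neurons, markers of other cells that such cultures can hold were read beside them. The summed level of 18 neuron markers was 1280 to 1700 CPM in untreated, 1343 to 1700 CPM in Fl/+ 4-OHT and 969 to 1050 CPM in Fl/Fl 4-OHT cultures. It was lower in every Fl/Fl culture. Of the 16 neuron markers tested 5 fell after deletion and none rose, with a median log2 fold change of -0.61. Of all tested genes 15.0% were called lower and 31.7% in either direction, and their median was 0.02. The count of calls is near the share in either direction, but all 5 were falls, for which the share is 15.0%. The 5 were Dcx, Cd24a (-1.66, edgeR adjusted p = 0.000230), Gap43 (-1.37, adjusted p = 0.00623), Tubb3 and Mapt (-0.94, adjusted p = 0.00689). The other 11 did not pass, with adjusted p from 0.0980 to 0.956. With 4-OHT 1 of the 16 rose, Gap43 (1.45, adjusted p = 0.00345), and none fell. Of 12 neural stem cell markers 4 fell and none rose after deletion, with a median of -0.22. All 4 calls were thus falls, where again 15.0% of all tested genes were called lower. With 4-OHT 1 rose and 4 fell, where 13.8% of all tested genes were called in either direction. The sums of these 12 markers overlapped between the groups, at 10346 to 14268, 9915 to 11954 and 8239 to 12604 CPM. Fewer cells of a type and less RNA per cell cannot be told apart in these bulk cultures, and the part of neuron-like cells in the falls of the members was not tested.

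The sums of 8 astrocyte markers were 5998 to 16245, 5037 to 7631 and 5752 to 10639 CPM in the same order of groups, and 1 of 8 rose after deletion, while 1 rose and 4 fell with 4-OHT. Those of 7 oligodendrocyte precursor markers were 4798 to 6931, 3837 to 6042 and 4172 to 5464 CPM, with no call among 7 by edgeR after deletion, 2 at an unadjusted p under 0.05 and 0 called by DESeq2. With 4-OHT 3 of them rose and 1 fell. 10 oligodendrocyte markers summed to 219 to 692, 501 to 1050 and 660 to 2776 CPM, and 1 of 9 tested rose after deletion and 5 of 9 with 4-OHT. Over all tested genes 13.8% were called in either direction with 4-OHT. Among the markers called there, Gfap went from 57.7 ± 43.3 to 548 ± 510 CPM and Mbp from 16.3 ± 16.7 to 118 ± 95.5 CPM. Apoe went from 6769 ± 3458 to 2263 ± 990 CPM. The part of such shifts in the members' values was not tested. Microglia markers summed to at most 2.01 CPM, with Aif1, Cx3cr1, Tmem119 and Itgam at no more than 3 counts in all 15 libraries, and endothelial and pericyte markers summed to at most 10.04 CPM, with Cldn5 and Cdh5 at that floor.

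Across the 15 libraries the members varied together to different degrees, which is given here as a description because the points share the 3 groups. Pearson's r of log2 CPM was highest between Dpysl3 and Crmp1, at 0.92, and lowest between Dpysl4 and Dpysl5, at 0.25. Among the 13333 genes compared, each averaging 1 CPM or more, the 3 most like Dpysl3 were Mob3a (r = 0.98), Bach1 (0.97) and Gnb1 (0.97). Bach1 (0.96) also led for Crmp1, followed by Usp22 (0.96). Most like Dpysl2 were Rcn1 (0.98), Vipas39 (0.98) and Rftn2 (0.97), and most like Dpysl5 were Tmem200a (0.93), Adgrl3 (0.93) and Adcyap1r1 (0.92). Dpysl4 had the least close neighbours, Zfyve28 (0.83), Tgfb2 (0.83) and Rftn1 (0.82). With Spearman's rho in place of r, 2 of these 3 stayed among the closest 3 for Dpysl5, 1 of 3 for Dpysl2 and 0 of 3 for Dpysl3, Dpysl4 and Crmp1.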

How the data were processed

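The authors made stranded poly(A) libraries from 15 aNSC cultures. According to the study's methods and the submitters' processing notes, reads were mapped to GRCm38 with STAR 2.5.4b, and uniquely mapped reads were assigned to genes with featureCounts 1.5.0. What they deposited are raw counts without normalization, and reads with several positions are absent from them. No molecular identifiers were used, so floors cover counting error only. Gene IDs were matched to GENCODE names of GRCm38 for 53706 of 53801 genes. Promoter windows came from RefSeq.

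The counts were fitted in edgeR 4.0.16 (R 4.3.3), with genes kept by filterByExpr (minimum count 10), TMM scaling, the quasi-likelihood F test and Benjamini-Hochberg adjustment over all tested genes, called under 0.05. Each comparison used its own 10 libraries. The SE is that implied by the F statistic. CPM and RPKM were computed with TMM factors of all 15 libraries, and log2(CPM + 0.5) was used for likeness. DESeq2 1.42.0 served as an alternative. Several of the fits, but not all, were run on simulated counts with known changes. No limit was set there on false calls of the DESeq2 Wald test, which called more unchanged genes than its nominal rate. For the 4-OHT comparison the numbers pair the samples, since both Fl/+ groups are from the same mice. Deviations from the group means correlated at 0.16 to 0.63 within a mouse and -0.55 to 0.34 between mice, over 15435 genes. Whether cultures are separate isolations of a mouse is not given in the sources used here.

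The members, the gene lists and the tests were chosen with earlier results of these data known. All 5 members are named in each comparison, with up to 4 called genes of each list by size of change and the 3 genes most like each member, of which 1 is not reported here. Neuron markers beyond Dcx and Tubb3, and Nes, Sox2, Gfap, Mbp and Apoe, were named with their values known. For 4-OHT, the labels and the study's methods each state a dose and a time, but these differ, so no dose is repeated here.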

Additional observations from a re-analysis of the deposited data

Results flagged for a closer look

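Crmp1 in the untreated Fl/+ culture of mouse 26 stood apart from the other 4 of its group, at 153 CPM against 107 to 119 CPM. Its gap to the nearest culture was 0.73 of the range of the group by Dixon's measure. It was the only such library among 15 combinations of a member and a group, and chance alone gives about 1 in 20. The 4-OHT culture of the same mouse held 161 CPM. The cause was not tested.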

How the results depend on the processing

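No log2 fold change of a member changed sign in any of the fits. In the deletion comparison the value of Dpysl4 lost its call with the dispersion of all 15 libraries (-0.54) and without the cultures of mice 36 and 39 (-0.57), an alternative chosen after seeing the data. Dpysl5 gained one with the mouse number range as covariate (-0.52) and without those mice (-0.69). With 1 library left out at a time, Dpysl4 ranged from -0.69 to -0.42 and Dpysl5 from -0.68 to -0.40. In the 4-OHT comparison Dpysl5 gained a call with DESeq2 size factors (-0.95), the DESeq2 Wald test (-0.95), no filter on low counts (-0.94), the dispersion of all libraries (-0.94), labelled sex (-0.95) or mouse number range (-0.92) as covariate and the replicate block (-0.85). Dpysl3 gained a call with library size alone (0.36), the DESeq2 Wald test (0.30), the dispersion of all libraries (0.31), labelled sex (0.31), mouse number range (0.31) and the replicate block (0.32). Leaving out 1 library at a time gave -0.62 to -0.41 for Dpysl2, 0.25 to 0.36 for Dpysl3 and -1.12 to -0.76 for Dpysl5, 0.04 to 0.34 for Dpysl4 and 0.09 to 0.35 for Crmp1. For Fl/Fl 4-OHT against Fl/+ untreated, Dpysl4 ranged from -0.48 to -0.19. The number of genes called for 4-OHT, 2044, became 3170 with mouse number range as covariate, 3809 with the replicate block, and 1271 to 2522 with 1 library left out, the lowest without the 4-OHT library of mouse 19, and 1311 without that of mouse 35. Among the gene lists, the tubulins called after deletion went from 8 to 5 with the dispersion of all libraries, the partners from 6 to 3 without the filter on low counts, and pyrimidine breakdown from 0 to 1 with mouse number range as covariate. With 4-OHT the genes called ranged over the alternatives from 1 to 6 for semaphorins and receptors (3 as reported), 1 to 5 for kinases (3), 1 to 6 for partners (1), 1 to 5 for tubulins (1), 2 to 5 for microtubule regulators (3) and 0 to 1 for pyrimidine breakdown (0). For Fl/Fl 4-OHT against Fl/+ untreated, the 1 gene of pyrimidine breakdown called became 0 with at least 10 counts in every library. The paired fit changed no other member's call. The other comparisons share no mice between their groups, so no paired fit could be made there. Dpysl5 had the lowest mean level of the members, with 186 to 915 counts per library. How far depth limits its precision was not tested. The causes of these changes were not tested.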
